A study of Mus musculus with 11 samples.

Results

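The neuropeptide genes Sst, Npy, Vip, Cck, Tac1, Crh, Pnoc, Cort and Penk and the calcium buffer gene Pvalb were examined in the hippocampus of young adult F1 mice. These 10 genes were taken by name from the 38293 genes of the deposited count files, after the Ensembl identifiers had been matched to GRCm38 gene symbols, and all 10 were measured. RNA-seq of whole hippocampus was available for 6 CD and 5 FD F1 mice, wildtype 129S6/SvEv x C57BL/6J hybrids aged 14 weeks. CD mice (3 males, 3 females) were born to 129S6/SvEv dams on a control diet with 2.3 mg folic acid (FA)/kg. FD mice (2 males, 3 females) were born to dams whose diet held 40 mg FA/kg. The dams received the FA-rich diet before mating with C57BL/6J males only, and all dams and offspring of both groups had the control diet from mating onwards. The F1 hybrids are isogenic. The labels name neither the dam nor the litter of a mouse, so mice may share one, and the p-values below measure the spread between these 11 mice.

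Hippocampal interneurons use GABA as their transmitter, and many release one or more neuropeptides in addition. Peptide precursors are cut by convertases, packed into dense-core vesicles and released during strong firing, and the mature peptides act on G-protein-coupled receptors. Somatostatin, neuropeptide Y, vasoactive intestinal peptide, cholecystokinin and parvalbumin are the usual labels of interneuron classes: Sst marks dendrite-targeting cells, Pvalb fast-spiking basket and axo-axonic cells, Vip cells that inhibit other interneurons, and Cck another kind of basket cell. Several of the genes are also transcribed outside interneurons, Cck in pyramidal cells and Penk and Tac1 abundantly in projection neurons of the neighbouring striatum. In bulk hippocampus, fewer cells of a type and less RNA per cell cannot be told apart.

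The gene counts per mouse ranged from 11737554 to 44447006, with a median of 23493609 in CD and 21148672 in FD mice. At this depth 3 counts correspond to 0.0675 to 0.256 CPM, the read count of a gene scaled to the depth of its library. All CPM values below were scaled by the trimmed mean of M-values (TMM). The markers of hippocampal pyramidal and granule cells were present in every group, with a summed level of 7434 to 7721 CPM over 12 genes in CD mice and 6754 to 8026 in FD mice. The 29 genes of GABA synthesis and interneuron identity summed to 2555 to 2812 CPM in CD and 2696 to 2844 CPM in FD mice. No gene of either list was at 0 in every mouse. FD female 3 stood apart from the other mice in genes typical of the striatum, as described below. No sequencing batch or date is given in the labels.

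Promoter sequences are shown for Sst, Npy and Cck, 3 of the 4 genes that differed between the sexes below. Each sequence covers the 250 bases before the RefSeq start site on GRCm38.p6, written 5′ to 3′ on the strand of the gene, and Pnoc has no entry in the RefSeq table. Capitals mark TGACGTCA, the cAMP response element that binds CREB family factors, and its shorter form CGTCA. The positions are chr16:23890845-23891094 (minus strand) for Sst, chr6:49822460-49822709 (plus strand) for Npy and chr9:121495695-121495944 (minus strand) for Cck. For Sst the RefSeq start lies inside the GENCODE gene model. The last part of the window, with the marked TGACGTCA, therefore lies inside that model.
Sst: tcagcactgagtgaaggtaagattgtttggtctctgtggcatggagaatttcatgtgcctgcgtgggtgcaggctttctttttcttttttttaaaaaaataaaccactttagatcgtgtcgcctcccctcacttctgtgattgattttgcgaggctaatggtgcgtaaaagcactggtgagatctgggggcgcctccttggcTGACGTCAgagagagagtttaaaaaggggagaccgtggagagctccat
Npy: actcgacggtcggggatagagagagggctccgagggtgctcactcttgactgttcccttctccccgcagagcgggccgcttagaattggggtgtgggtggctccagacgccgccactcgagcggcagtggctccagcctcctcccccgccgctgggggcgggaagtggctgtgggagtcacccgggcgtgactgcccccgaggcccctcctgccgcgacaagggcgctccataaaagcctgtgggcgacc
Cck: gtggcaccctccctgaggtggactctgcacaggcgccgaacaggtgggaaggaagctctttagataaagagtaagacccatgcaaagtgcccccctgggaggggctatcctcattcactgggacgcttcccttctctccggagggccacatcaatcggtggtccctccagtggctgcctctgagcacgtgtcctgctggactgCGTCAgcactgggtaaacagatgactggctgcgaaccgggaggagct
RefSeq promoters were matched for 7 of the 10 genes, and Crh, Pnoc and Penk had none. Sst held the full element TGACGTCA with its first base at -48 from the start. That sequence was present on either strand in 1.55% of 32851 promoters of the same length. Vip held TGACGTC at -79, a sequence found in 2.78% of promoters. Counting CGTCA, which lies within both longer motifs, 5 genes had a match (Sst, Vip, Cck, Tac1 and Cort), against 17.8% of all promoters. In Cck it was at -47 and in Cort at -18, while Tac1 had it at -197 and -43. The Tac1 window (chr6:7554811-7555060) also runs into its GENCODE gene model, and the match at -43 lies inside that model. No CGTCA was found in the windows of Npy and Pvalb. TATAAA, the TATA box, was present in the Vip window at -157, -147 and -30 and in 12.4% of all promoters. These matches describe the letters of the windows.

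All 10 are protein-coding genes of GRCm38, and counts were taken over their exons. On that build the annotation places Sst (ENSMUSG00000004366) at chr16:23889573-23890958 on the minus strand, Npy (ENSMUSG00000029819) at chr6:49822710-49829507 on the plus strand and Cck (ENSMUSG00000032532) at chr9:121489824-121495694 on the minus strand. It places Vip (ENSMUSG00000019772) at chr10:5639218-5647617 on the plus strand, Pvalb (ENSMUSG00000005716) at chr15:78191114-78206400 on the minus strand and Cort (ENSMUSG00000028971) at chr4:149125034-149126763 on the minus strand. It places Penk (ENSMUSG00000045573) at chr4:4133531-4138819 on the minus strand, Pnoc (ENSMUSG00000045731) at chr14:65400673-65425472 on the minus strand, Tac1 (ENSMUSG00000061762) at chr6:7554879-7565834 on the plus strand and Crh (ENSMUSG00000049796) at chr3:19693401-19695396 on the minus strand. The merged exons span 566 bases in Npy, the shortest, and 3402 bases in Vip, the longest.

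The levels of the 10 genes were compared per kilobase of merged exons (CPM per kb), the scale that allows genes of different length to be ordered. Sst, which encodes somatostatin, was the most abundant with a mean of 186.9 CPM per kb over the 11 mice. Cck, the cholecystokinin precursor, followed with 125.7 CPM per kb and Npy, the precursor of neuropeptide Y, with 90.5. Pvalb reached 35.2 CPM per kb. Sst exceeded Cck in 11 of 11 mice although the ranges of both genes overlapped, and the same held for Cck above Npy. The range of Npy did not overlap that of Pvalb.

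The remaining genes were lower. Penk, the precursor of the enkephalins, had a mean of 16.8 CPM per kb and Vip 5.01, and their ranges did not overlap. Cort, which encodes the somatostatin-like peptide cortistatin, had 4.49 CPM per kb and Pnoc, the nociceptin precursor, 3.78. Tac1, the precursor of substance P and neurokinin A, had 2.68 CPM per kb. The neighbours in this order overlapped from Vip down to Tac1: Vip exceeded Cort in 8 of 11 mice, Cort exceeded Pnoc in 8 and Pnoc exceeded Tac1 in 10. Crh, which encodes corticotropin-releasing hormone, was lowest with 0.935 CPM per kb, below Tac1 without overlap. Crh rested on 9 to 64 counts and Cort on 23 to 144 counts per mouse. The coefficient of variation of CPM over the mice was smallest for Vip (10.1%) and Sst (14.1%) and largest for Cort (35.4%) and Penk (37.5%).

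**Figure D1:**
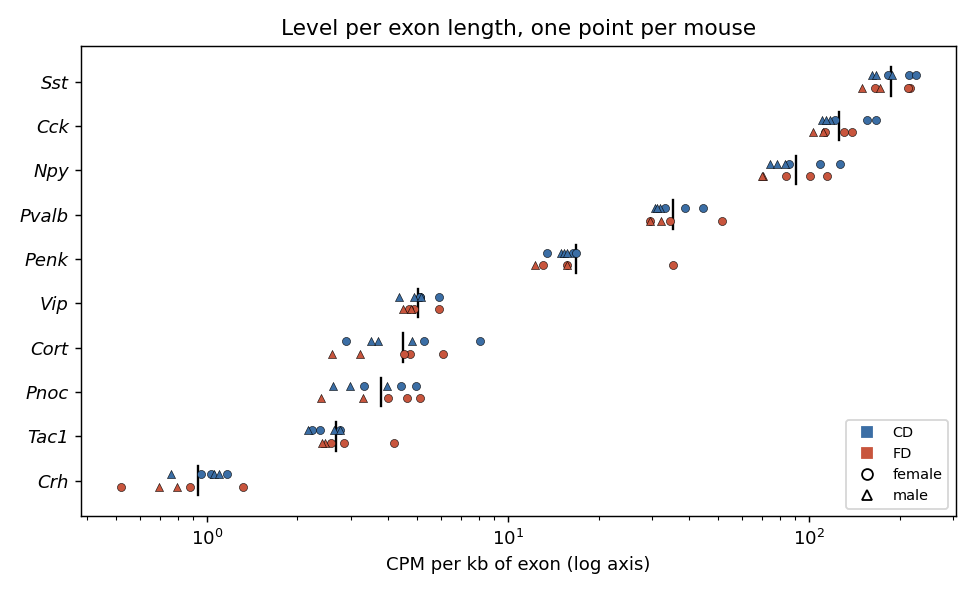
Level of the 10 genes in CPM per kilobase of merged exons, on a log axis, with 1 point per mouse (blue CD, red FD, circles female, triangles male) and vertical lines at the means. Sst (mean 186.9), Cck (125.7) and Npy (90.5) sit highest and Crh (0.935) lowest, and FD female 3 stands above the other mice for Penk.

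Maternal diet was the factor the design set. None of the 10 genes passed the test between FD and CD F1 mice, where 14 of 20589 genes tested (0.068%) did so with edgeR's quasi-likelihood test at an adjusted p under 0.1. No gene of the 10 had an unadjusted p under 0.05 with edgeR or with DESeq2, which also called 0 of them. CD and FD mice overlapped for all 10 genes, against 0.505% of all genes whose groups did not overlap. The log2 fold change was above 0 for 4 genes and below 0 for 6, with a median of -0.04 beside -0.004 over all genes tested.

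The somatostatin family showed small differences. In CD mice, Sst ranged from 116 to 163 CPM with a median of 134. In FD mice, Sst was at 156, 124, 119, 108 and 153 CPM. All FD values but the lowest lay within the range of the CD mice, and the fold change was 0.965 with a 95% interval of 0.831 to 1.12 (log2 -0.05, SE 0.10; exact permutation p = 0.645). Cort, close to Sst in sequence of its peptide, ranged from 1.96 to 5.46 CPM in CD and from 1.77 to 4.13 CPM in FD mice. Its interval was wide, at 0.658 to 1.31-fold.

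Npy and Cck, which sit in partly overlapping interneuron classes, both reached lower in FD than in any CD mouse, and less high than in the highest CD mouse. Npy had a median of 47.7 CPM in CD mice (41.9 to 71.8) and was at 57.0, 39.9, 47.4, 39.4 and 64.8 CPM in FD mice. Its fold change was 0.953 with an interval of 0.770 to 1.18. Cck had a median of 156 CPM in CD mice (144 to 218) and was at 170, 145, 147, 135 and 182 CPM in FD mice. The groups overlapped, and Cck had a fold change of 0.912 with an interval of 0.780 to 1.07 (log2 -0.13, SE 0.11; exact permutation p = 0.375). Without CD female 3, the mouse with the highest Npy and Cck, the log2 fold change of Npy was 0.04 and that of Cck -0.05.

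Vip and Pvalb, which mark disinhibitory and fast-spiking cells, had nearly the same means in both groups. Vip was 17.2 ± 1.69 CPM (SD, n = 6) in CD and 16.8 ± 1.92 CPM (SD, n = 5) in FD mice, with an interval of 0.860 to 1.11-fold. Pvalb was 36.5 ± 5.69 CPM in CD and 36.9 ± 9.56 CPM in FD mice, with an interval of 0.839 to 1.24-fold. The FD values of Pvalb were 35.8, 33.4, 30.8, 30.9 and 53.6 CPM, so 1 mouse carried the high mean. Without FD female 3 the log2 fold change of Pvalb was -0.15.

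The opioid and tachykinin precursors had the largest positive differences. Penk ranged from 22.0 to 27.6 CPM in CD mice with a median of 25.3, and was at 25.6, 25.6, 21.3, 20.1 and 57.7 CPM in FD mice. FD female 3 alone was above the CD range, and the other 4 FD mice were within or below it. The fold change of Penk was 1.20 with an interval of 0.890 to 1.62 (log2 0.26, SE 0.20; exact permutation p = 0.840). Without FD female 3, the log2 fold change of Penk was -0.12 (SE 0.08). Tac1 ranged from 7.36 to 9.42 CPM in CD mice with a median of 8.52, and was at 9.74, 8.38, 8.76, 8.20 and 14.2 CPM in FD mice. Its log2 fold change of 0.22 (SE 0.13; exact permutation p = 0.234) was 0.04 without FD female 3. Pnoc, a precursor related to Penk, ranged from 5.67 to 10.6 CPM in CD and from 5.16 to 10.97 CPM in FD mice, with an interval of 0.810 to 1.37-fold.

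Crh, the stress hormone expressed in scattered hippocampal interneurons, ranged from 1.01 to 1.54 CPM in CD mice with a median of 1.38. In FD mice it was at 1.16, 1.05, 0.685, 0.919 and 1.74 CPM. The lowest and the highest value of all mice were both in the FD group. The log2 fold change was -0.23 (SE 0.20; exact permutation p = 0.184), and without FD female 3 it was -0.45 with an unadjusted p of 0.0326 and an adjusted p of 0.899 in edgeR's quasi-likelihood test. Penk shares 233 exonic bases (14.3% of its own) with the antisense transcript A830012C17Rik. The sources used here do not state whether strand was used in counting, and reads of such a pair cannot then be told apart. The antisense gene held 9 counts over the 11 mice.

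**Figure D2:**
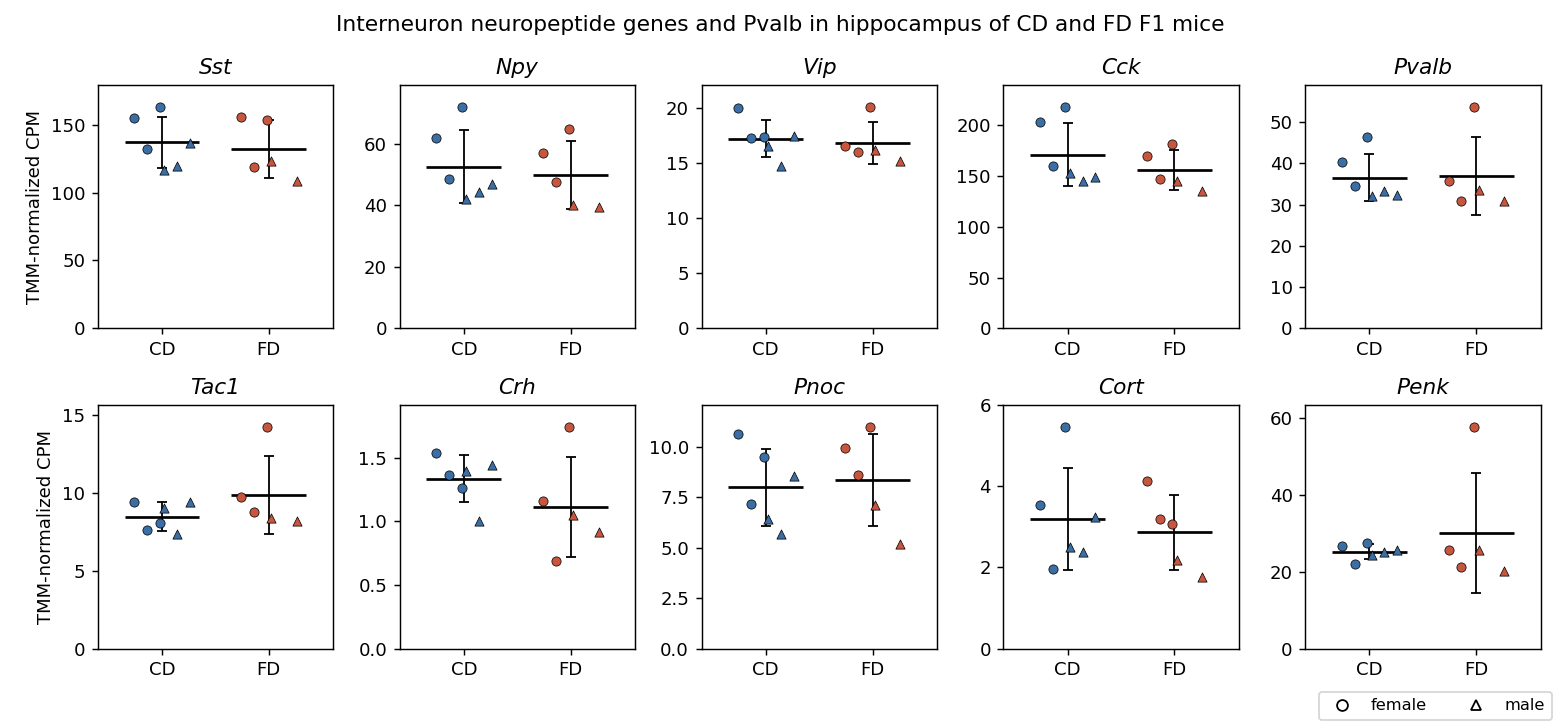
TMM-normalized CPM of each of the 10 genes in 6 CD (blue) and 5 FD (red) mice, with circles for females, triangles for males, and bars for the mean ± SD. The groups overlap for every gene, and the FD mean of Penk (30.1 CPM against 25.3 in CD) rests on 1 mouse at 57.7 CPM.

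Genes around the peptides were described by the same fit. Of the receptors of these peptides, 21 of 22 were tested (Cckar was not), 0 passed the test, 9 had a positive and 12 a negative log2 fold change. The somatostatin receptor Sstr3 had the smallest p, with 42.4 ± 2.69 CPM (SD, n = 6) in CD and 38.7 ± 4.88 CPM (SD, n = 5) in FD mice and a log2 fold change of -0.12 (SE 0.08). Among 13 genes of peptide processing and dense-core vesicles, 0 passed the test and 11 had a negative log2 fold change, with Pcsk1n, an inhibitor of the convertase PCSK1, at -0.26 (SE 0.22) and the granin Vgf at -0.15 (SE 0.13). The lean was not particular to this list (median -0.036). Of the 12 pyramidal and granule cell markers, 10 were negative (median -0.045). Of 14 other neuropeptide genes tested (Oxt and Ucn were not), 0 passed, with 6 positive and 8 negative. Avp, the vasopressin precursor, lay between 0 and 0.152 CPM, about the level of 3 counts. Of the 29 interneuron identity genes, 0 passed, with 18 positive and 11 negative and a median log2 fold change of 0.009. The smallest unadjusted p-values of this list belonged to Erbb4, the neuregulin receptor of interneurons, at 0.19 (SE 0.10) and Reln, the reelin gene, at 0.17 (SE 0.09). Counts at an unadjusted p under 0.05 were 0 in each of these lists.

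FD female 3 was the highest of the 11 mice for 6 of the 10 genes. In that mouse, Penk was at 57.7 CPM and the next highest mouse of either group at 27.6. Tac1 was at 14.2 CPM in FD female 3 and at most 9.74 CPM elsewhere. The same mouse was highest for Pvalb (53.6 CPM, next highest 46.3) and Crh (1.74, next highest 1.54). It was also highest for Vip (20.12) and Pnoc (10.97), where the lead was small, with CD female 1 at 20.01 and 10.65 CPM. CD female 3 was highest for the other 4 genes (Sst, Npy, Cck and Cort), and FD male 2 was lowest for 6 of the 10.

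Most striatal markers were highest in FD female 3. This mouse was highest for 7 of the 8 genes of that list, all but the dopamine receptor gene Drd1. Drd1 was at 7.33 CPM in FD female 3, within the 4.88 to 7.56 CPM of the other mice. The lead was small for Rgs9 (10.23 CPM, next highest 9.898) and Gpr6 (1.615 CPM, next highest 1.424). Adora2a, the adenosine receptor of striatal projection neurons, was at 3.93 CPM in FD female 3 and at 0.994 to 1.38 CPM in the other 10 mice. Ppp1r1b, which encodes DARPP-32, was at 54.3 CPM against 29.0 to 41.5 CPM. Isl1, a transcription factor of striatal projection and cholinergic neurons, had 11 counts in FD female 3 and 0 counts in 6 mice. The summed level of the 8 genes was 49.4 to 60.3 CPM in CD mice and 47.9 to 93.2 CPM in FD mice, with FD female 3 at 93.2. None of the 8 was at 0 in every mouse. The part of the striatal markers in the Penk and Tac1 values was not tested. All 8 had a positive log2 fold change for diet (median 0.30), 0 passed the test, and 2 had an unadjusted p under 0.05, among them Isl1 at 0.00235. FD female 3 held 11 of the 17 Isl1 counts of all mice. Without this mouse, a fit of the list added after seeing the data, 7 of the 8 genes were tested and Isl1 was not, 4 log2 fold changes were positive and 3 negative (median 0.03), and 0 had an unadjusted p under 0.05.

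The summed level of the choroid plexus markers was highest in CD female 3, the other mouse that led several genes. The 8 markers summed to 90.1 CPM in CD female 3, and over groups to 35.9 to 90.1 CPM in CD and 31.2 to 44.3 CPM in FD mice. Ttr, the transthyretin gene and the most abundant choroid plexus transcript, was at 54.7 CPM in CD female 3, 5.72 to 31.6 CPM in the other CD mice and 3.35 to 14.4 CPM in FD mice. Ttr had a log2 fold change for diet of -1.19 (SE 0.47) with an unadjusted p of 0.0212 and an adjusted p of 1 in edgeR, and -0.71 (unadjusted p 0.0840) without CD female 3, also added after seeing the data. Otx2 and Prlr, the choroid plexus genes by which the authors checked their hippocampal RNA with qPCR, were at 0.0853 to 1.06 CPM and 3.48 to 4.80 CPM in these libraries. Otx2 was highest in CD male 2 and Prlr in CD male 1, not in CD female 3. The part of the choroid plexus markers in the Sst, Npy, Cck and Cort values was not tested. Thalamic (101.5 to 126.5 CPM), cortical (357 to 394 CPM) and glial or vascular markers (6903 to 8131 CPM) showed overlapping ranges in both groups, with 0 genes called for diet in each list.

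**Figure D3:**
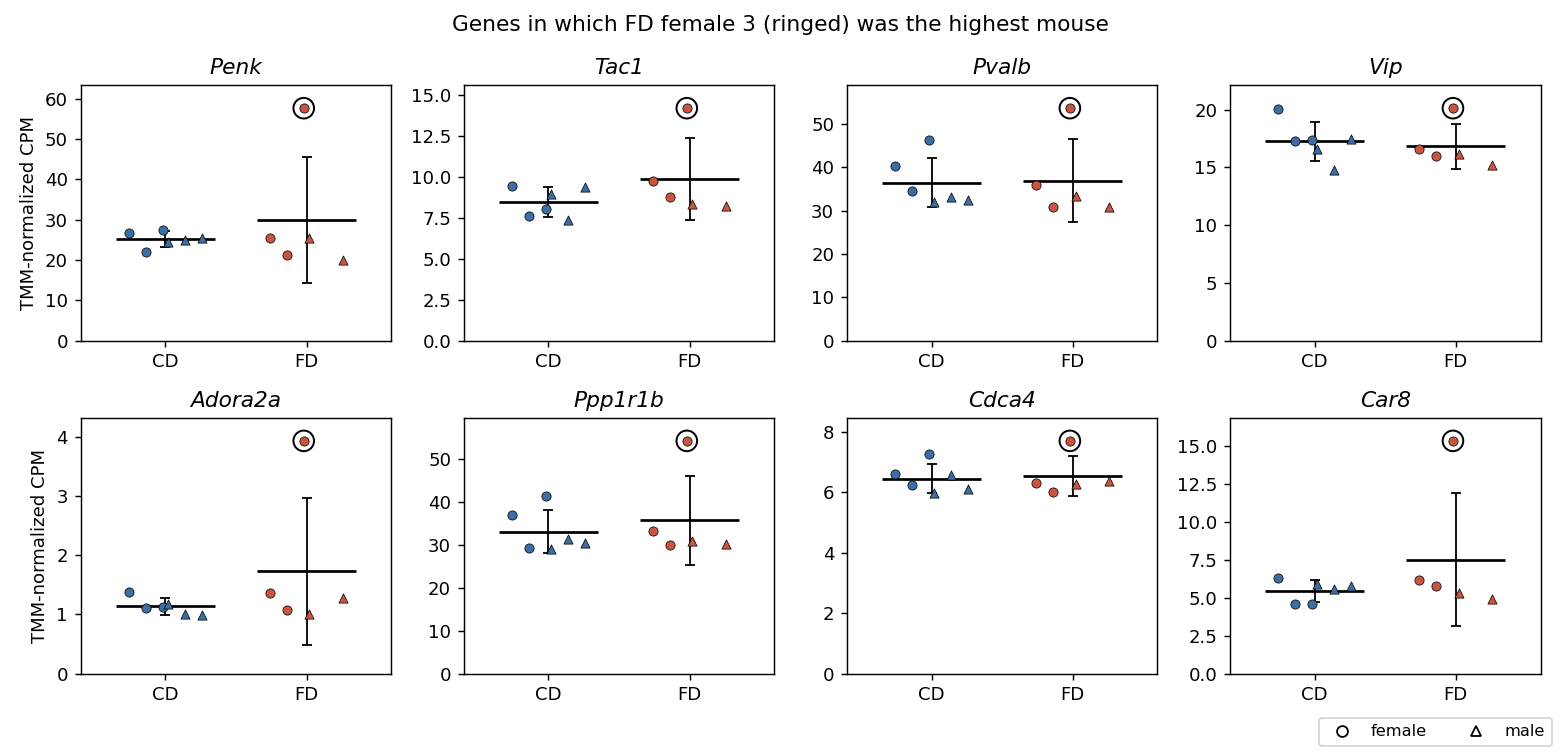
TMM-normalized CPM by maternal diet (circles female, triangles male, bars mean ± SD) of Penk, Tac1, Pvalb and Vip and of Adora2a, Ppp1r1b, Cdca4 and Car8, with FD female 3 ringed. The 8 genes were chosen for the figure because FD female 3 was the highest mouse, at 57.7 CPM for Penk and 3.93 CPM for Adora2a. For Vip, CD female 1 was nearly as high (20.01 against 20.12 CPM).

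The labels also give the sex of each mouse. All 10 genes had a negative log2 fold change of males against females in a fit with diet as a covariate (median -0.30, beside -0.004 over all genes). Of these, 4 passed the test: Npy, Cck, Pnoc and Sst. Over all genes, 624 of 20589 (3.03%) were lower in males at an adjusted p under 0.1 in edgeR's quasi-likelihood test, and 633 were higher.

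Npy was at 47.4 to 71.8 CPM in the 6 females with a median of 59.4. In males it was at 41.9, 44.2, 46.9, 39.9 and 39.4 CPM. The sexes did not overlap, which held for 0.729% of all genes in this direction. Male mice had 0.716 of the female level of Npy, with an interval of 0.631 to 0.812 (log2 -0.48, SE 0.09), and the adjusted p was 0.0342 in edgeR's quasi-likelihood test (adjusted by Benjamini-Hochberg over all genes).

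Pnoc was at 7.17 to 10.97 CPM in females with a median of 9.73, and at 6.45, 5.67, 8.56, 7.09 and 5.16 CPM in males. A single male, CD male 3, was within the female range. The log2 fold change was -0.52 (SE 0.13) with an adjusted p of 0.0668 in the same edgeR test.

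Cck was at 147 to 218 CPM in females with a median of 176, and at 153, 144, 149, 145 and 135 CPM in males. Sst was at 119 to 163 CPM in females with a median of 154, and at 116, 120, 136, 124 and 108 CPM in males. The sexes overlapped for both genes, and the lowest male was below every female. The log2 fold change was -0.32 (SE 0.07) for Cck and -0.29 (SE 0.07) for Sst, with adjusted p of 0.0621 and 0.0714 by edgeR. Exact permutation p-values, unadjusted, were 0.00866 for Npy and Pnoc, 0.0195 for Cck and 0.0281 for Sst.

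The other 6 genes did not pass the test between the sexes. Cort had the largest value, with a log2 fold change of -0.57 (SE 0.19) and an adjusted p of 0.112 by edgeR, followed by Pvalb with -0.32 (SE 0.11) and an adjusted p of 0.110. Pvalb was at 30.8 to 53.6 CPM in females and 30.9 to 33.4 CPM in males, so the males all lay within the female range. Vip, Penk, Tac1 and Crh had log2 fold changes of -0.17, -0.29, -0.16 and -0.19, with adjusted p from 0.224 to 0.642 by edgeR. Without FD female 3 the log2 fold change was -0.04 for Penk (SE 0.08), -0.05 for Tac1 (SE 0.10) and -0.07 for Crh (SE 0.19), and for Pvalb it was -0.22.

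**Figure D4:**
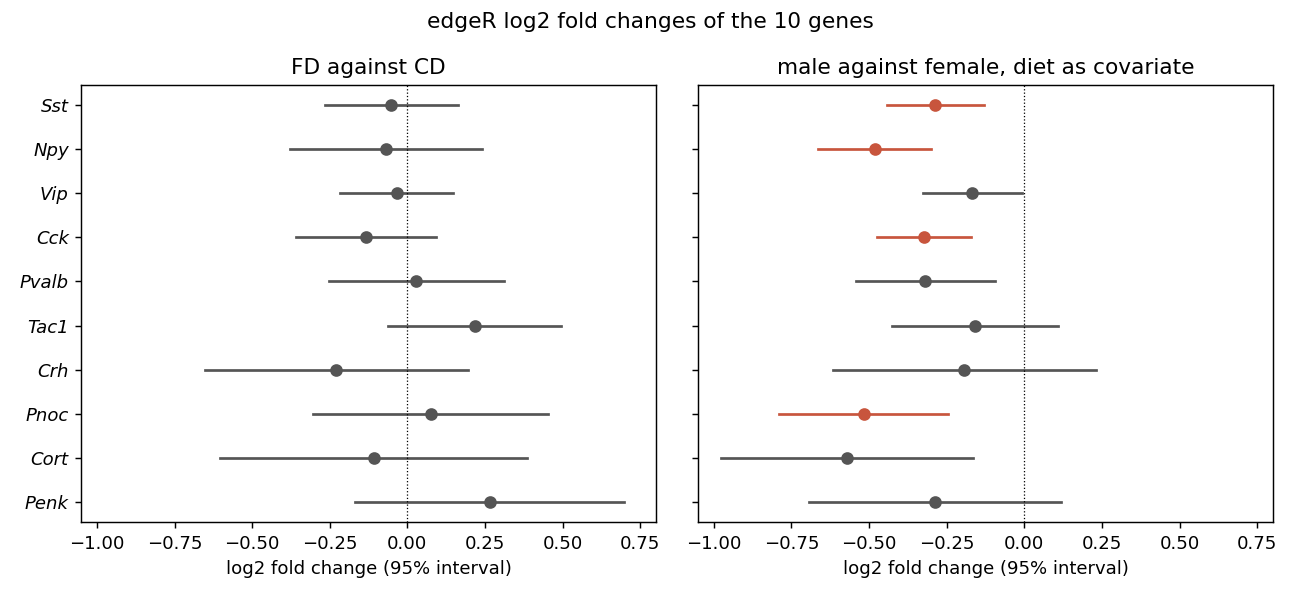
Log2 fold change of each gene with its 95% interval for FD against CD and for male against female mice, with genes at an adjusted p under 0.1 in red. Every diet interval includes 0, and Npy (-0.48), Pnoc (-0.52), Cck (-0.32) and Sst (-0.29) are called between the sexes.

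The sex calls depended on single mice. The number of the 10 genes called was 0 without CD male 1, CD female 3 or FD male 2. It was 1 without CD female 1, CD male 2, FD female 1 or FD female 3, 4 without CD male 3 or FD male 1, and 6 without CD female 2 or FD female 2. The log2 fold change of Npy stayed between -0.55 and -0.42 over these 11 fits. Over all genes the number called between the sexes ranged from 18 to 3244.

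Reads that fell in no counted feature may include reads in introns of annotated genes. Their share moved with these genes. It was 7.01% to 10.5% in females with a median of 8.75%, and 8.95% to 11.03% in males with a median of 10.4% (exact permutation p = 0.0628). Across the 11 mice, log2 CPM correlated negatively with this share for all 10 genes. For Cort (r -0.51) and Penk (r -0.48) the adjusted permutation p of r was above 0.1, at 0.119 and 0.121. Their adjusted permutation p of rho was 0.0944 and 0.0699. In the 5 males, r was -0.04 for Sst and 0.30 for Pvalb. The relation was not counted over all genes, so it is not shown to be particular to these 10. Pearson's r was -0.86 for Vip (Spearman's rho -0.83, adjusted permutation p 0.0061 for r and 0.0152 for rho over 10 relations). It was -0.80 for Cck (rho -0.87, adjusted permutation p 0.0142 and 0.0085). Without the 2 mice farthest from the median share, r was -0.72 for Vip and -0.73 for Cck. For Npy, r was -0.73 over all mice (rho -0.70, adjusted permutation p 0.0198 and 0.0340), -0.73 without the 2 farthest mice, -0.64 in the 6 females and -0.04 in the 5 males. With the share added to the sex fit, an alternative chosen after seeing the data, 0 of the 10 genes and 9 of all genes were called. Without the share, 4 of the 10 and 1257 of all genes were called. Npy then had a log2 fold change of -0.37 (SE 0.11, unadjusted p = 0.00294, adjusted p = 0.557 by edgeR), Pnoc -0.30, Cck -0.19 and Sst -0.17.

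**Figure D5:**
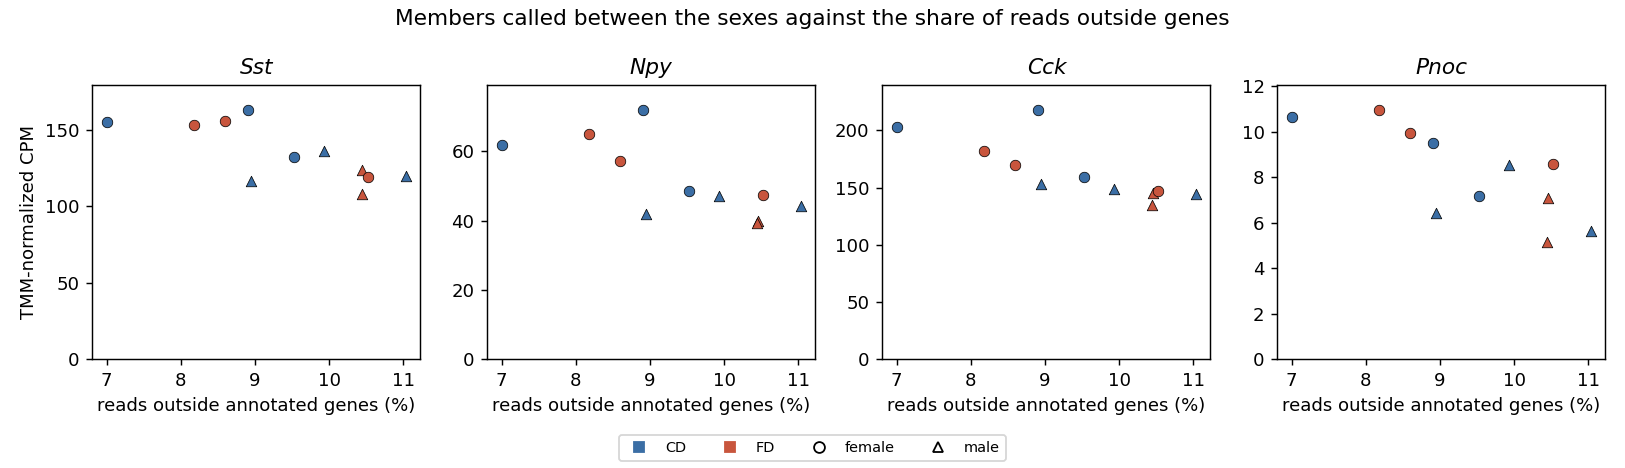
TMM-normalized CPM of the 4 genes called between the sexes against the share of reads in no counted feature in percent. The axis calls them reads outside annotated genes. There is 1 point per mouse (blue CD, red FD, circles female, triangles male). Females sit at 7.01% to 10.5% and males at 8.95% to 11.03%. The median CPM is lower in males for each gene, but the sexes overlap for all except Npy. Over the 11 mice, r is -0.73 for Npy and -0.80 for Cck.

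Related lists were counted in the same sex fit, in which 3.03% of all genes were called lower and 3.07% higher in males. Of the 29 interneuron identity genes, 0 were called lower and 4 were called higher in males (Sox6, Reln, Erbb4 and Ndnf, named after their values were seen). Their log2 fold changes were 0.25, 0.23, 0.28 and 0.30, and the median of the list was -0.0005. Among the peptide processing genes Chga (-0.26) and Pcsk1n (-0.57) were called lower and the convertase gene Pcsk1 (0.31) higher, also named after their values were seen. The receptors had 1 gene called, Vipr1, which binds VIP, higher at 0.21, and the other neuropeptides had 1, Pdyn, the dynorphin precursor, lower at -0.35. With 1 of 21 and 1 of 14 genes called, these 2 shares are near those over all genes.

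The diet difference was not shown to differ between the sexes for any of the genes. For the interaction term, 0 of the 10 genes and 0 of 20589 genes (0.0%) were called by edgeR's quasi-likelihood test, and DESeq2 called 0. At an unadjusted p under 0.05 there were 0 of the 10 and 391 of all genes (119 with DESeq2). The smallest p among the 10 was 0.0898 for Tac1, whose interaction term was -0.44 on the log2 scale (SE 0.24) in edgeR.

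The levels of the 10 genes varied together across mice. Pearson's r of log2 CPM was positive for all 45 pairs and at least 0.7 for 22. At an adjusted permutation p under 0.1 there were 32 pairs by r and 31 by rho, over 45 tested. Such counts were not made over pairs of other genes, so they do not set these 10 genes apart from the rest. The points share library, depth and scaling, and the values are not adjusted for diet or sex. The closest pair was Npy and Cck with r = 0.94 (rho 0.91, adjusted permutation p 0.0009 for r and 0.0072 for rho). It was 0.90 without the 2 mice farthest from the median of Npy, and 0.93 after subtracting the diet-by-sex means. Sst and Npy, which are expressed together in many dendrite-targeting interneurons, had r = 0.93 (rho 0.85, adjusted permutation p 0.0009 and 0.0134), and r was 0.90 without the 2 farthest mice. The pair with the lowest value was Crh and Cort with r = 0.21 (rho 0.32, adjusted permutation p 0.525 and 0.349) and 0.43 without the 2 farthest mice.

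Tac1 and Penk had r = 0.86 (adjusted permutation p 0.0351), but rho was 0.43 (adjusted permutation p 0.213). Their r was 0.41 without the 2 mice farthest from the median of Tac1 and 0.28 without FD female 3, so the relation rested on those mice.

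The genes most like each of the 10 were sought by Pearson's r over the 11 mice among 14298 genes. The closest to Sst were Stk11 (0.99), Ndufs7 (0.98) and Tmbim6 (0.98). Npy was closest to Reep2 (0.98), Atp5e (0.98) and Tppp3 (0.97), Cck to Tubb4a, Thy1 and Elob (0.97 each), and Vip to Syt13 (0.97), Aldh1b1 (0.96) and Ciao1 (0.95). For these 4 genes the values without FD female 3 were between 0.95 and 0.99. Pnoc was closest to Trappc6a (0.96), Pigs (0.96) and Aprt (0.95), Cort to Epor (0.94), Rell2 (0.93) and Alad (0.93), and Crh to Cptp (0.93), Fem1a (0.93) and Rab15 (0.91). None of the 10 had another of the 10 among its 3 closest genes.

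For Pvalb, Penk and Tac1 the values are also given without FD female 3. Pvalb was closest to Lrrc10b (0.98), Ppp1r1b (0.97) and Cdca4 (0.94), and without it these were 0.97, 0.95 and 0.86. Penk was closest to Car8 (0.92), Ppp1r1b (0.91) and Gm13443 (0.90), which fell to 0.27, 0.67 and 0.32 without FD female 3. Tac1 was closest to Car8 (0.94), Adora2a (0.89) and Rgs12 (0.87), which were 0.75, 0.47 and 0.73 without it. These values are descriptions over 11 mice chosen as the highest of many genes.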

How the data were processed

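Hippocampal RNA of 11 F1 mice was sequenced as single-end reads of whole tissue. The authors aligned trimmed reads to mm10 (GRCm38) with STAR and counted unique alignments per gene with featureCounts, and the deposited files hold raw counts per Ensembl gene. The annotation release and the use of strand are not given in the sources used here. The summary lines at the end of each file, 24.4% to 26.9% of its reads, were left out of library sizes and tests. They have the form that HTSeq writes.

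Identifiers were matched to GENCODE M21 of GRCm38 for 36345 of 38293 genes. Genes with at least 10 counts over the 11 mice (20589) were TMM-normalized and tested with edgeR 4.0.16 (R 4.3.3) by the quasi-likelihood F-test, with Benjamini-Hochberg adjustment over all of them and a threshold of 0.1. Diet was fitted without covariates, sex with diet, and the interaction with both. Intervals are at 95% and log2 CPM used a prior count of 2. Single genes were also tested by two-sided exact permutation of log2 CPM over the 462 splits of the mice. Correlations used 100000 permutations. DESeq2 1.42.0 was an alternative, and each mouse was left out in turn. The fits were tested on simulated data.

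The 10 genes and all lists were chosen with earlier results of these data known. Besides the 10, the text names the 2 genes of each list with the smallest diet p where they bear on a result, and the 3 genes most correlated with each of the 10 among those with a mean of at least 1 CPM. Other genes of the lists are named with that remark or as values of the mouse they describe. RefSeq promoters were searched for motifs on both strands. One gene of the striatal list is not reported here. Figures were drawn with matplotlib 3.10.9.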

Additional observations from a re-analysis of the deposited data

Results flagged for a closer look

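In groups of 4 to 10 mice, a mouse whose gap to its nearest neighbour exceeded Dixon's critical value was noted. Chance sets apart a mouse in about 1 in 20 groups. That rate is for independent groups, which genes measured in the same mice are not. A mouse was set apart in 4 of the 20 groups of the 10 genes, each time FD female 3. The same happened in 3 of the 40 groups of genes named from the lists alone, and in 5 of the 56 groups of genes chosen for their likeness to one of the 10. The last number follows in part from that choice, since a gene most like Penk, Tac1 or Pvalb shares their high mouse, and it is no further evidence. FD female 3 was the high mouse in 10 of these 12 groups. Among the 10 genes these were Penk at 57.7 CPM (next FD mouse 25.6), Tac1 at 14.2 (9.74), Pvalb at 53.6 (35.8) and Vip at 20.1 (16.6). The other genes were Adora2a at 3.93 CPM, Car8 at 15.4, Cdca4 at 7.70, Gm13443 at 11.4, Isl1 at 0.455 and Ppp1r1b at 54.3. Isl1 was also set apart in CD female 1 at 0.0314 CPM, a value of 1 count with the other CD mice at 0. Slc17a6, a vesicular glutamate transporter gene abundant in the thalamus, was high in CD male 3 at 23.8 CPM (next CD mouse 19.0).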

How the results depend on the processing

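None of the 10 genes was called for diet under any of 22 alternatives. Over all genes, 14 were called for diet, against 1 with at least 10 counts in every mouse, 8 with filterByExpr, 1 in females only, 2 in males only, and 3 to 12 with a mouse left out. With the share of reads in no counted feature as a covariate, chosen after seeing the data, 22 were called. The fit with a replicate block over 10 mice (CD male 3 has no partner) called 23 genes and 2 of the listed genes (Ttr and Clic6, against 0), and the same 10 mice without the block, added later, called 4. Same-numbered mice of 1 sex correlated at 0.31 to 0.54 in their deviations from the diet means, and same-sex mice of other numbers at -0.06 to 0.53. Once sex was removed, these ranges were -0.09 to 0.32 (2 of 5 pairs over 0.1) and -0.39 to 0.20 (1 of 10). The overlapping ranges cannot decide whether the numbers pair the mice. The labels do not explain the numbers, so the mice were not treated as paired. The log2 fold change for diet turned sign for Vip (0.0024) with the share as a covariate, for Pvalb with sex as a covariate (-0.0084), under the replicate block (-0.0277), in the 10 mice (-0.005) and in females (-0.0035), for Pnoc with sex as a covariate (-0.0185), and in males for Tac1 (-0.0465), Pnoc (-0.1595) and Penk (-0.1). With a mouse left out it ran from -0.1101 to 0.0143 for Sst, -0.1832 to 0.037 for Npy, -0.1092 to 0.0164 for Vip, -0.1464 to 0.1057 for Pvalb, -0.0412 to 0.1955 for Pnoc, -0.3037 to 0.0627 for Cort and -0.1166 to 0.3752 for Penk. Of 219 diet values of single genes, 196 kept direction and call. The 4 sex calls became 7 without a count filter, 6 with DESeq2, 0 with the share as a covariate and 0 to 6 with a mouse left out. With the share, the sex difference turned to 0.1021 for Tac1, 0.2151 for Crh and 0.0405 for Penk. The cause of these changes was not tested. Pairs of the 10 genes with r of at least 0.7 numbered 15 to 19 under the alternatives against 22. Crh could not be fitted with at least 10 counts in every mouse. The depth limits Crh and Cort most.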
